A study of Mus musculus with 23 samples.

Results

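The *Cyp2b* family of the mouse ileum was described from 5 genes, *Cyp2b10*, *Cyp2b9*, *Cyp2b13*, *Cyp2b19* and *Cyp2b23*, which encode cytochrome P450 enzymes and lie in 1 cluster on chromosome 7. The members were every probe that the scanner files name after 1 of these genes, 8 probes of 56605 on the array and 5 genes of 24813. Gene expression was measured on 1-colour Agilent arrays, 1 array per mouse, in the ileum of male mice on the C57BL/6J background. WT mice were bought from a supplier at 6 weeks of age and kept for 2 weeks before the experiment, whereas *Pxr*-/- mice, which lack the pregnane X receptor (PXR, gene *Nr1i2*) in the whole body, came from a colony bred in house for 10 years and their age is not given in the sources used here. Genotype and origin of the mice therefore cannot be told apart. WT PCN (5 arrays, from 6 mice allocated) and *Pxr*-/- PCN (6 arrays) received pregnenolone 16α-carbonitrile (PCN), a steroid that activates rodent PXR, at 100 mg/kg in corn oil by daily intraperitoneal injection for 4 days. WT CONT (6 arrays) and *Pxr*-/- CONT (6 arrays) received corn oil alone. All mice were killed at ZT6, per the labels in the fed state, 6 hours after lights on and 6 hours after the last injection.

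CYP2B enzymes oxidise steroids, drugs and fatty acids in the endoplasmic reticulum, taking electrons from the reductase POR and carrying heme made from the product of ALAS1. *Cyp2b10* is the classical phenobarbital-inducible *Cyp2b* gene of mouse liver and is regulated through the constitutive androstane receptor (CAR, gene *Nr1i3*) and PXR, which bind DNA as partners of RXR and share many response elements. *Cyp2b9* and *Cyp2b13* are known for higher expression in the liver of female than of male mice, *Cyp2b19* for expression in the differentiating keratinocytes of skin, and the role of *Cyp2b23* is less well described.

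A probe is a 60-base sequence fixed to the array, and 2 of the 8 probes read *Cyp2b10*. The upstream *Cyp2b10* probe (A_52_P472486) starts at base 1094 of its transcript and lies at chr7:26702056-26702115 (mm9, plus strand). The downstream *Cyp2b10* probe (A_55_P2044653) starts at base 1756 and lies at chr7:26711522-26711581, and the *Cyp2b9* probe (A_51_P467076) starts at base 1804 and lies at chr7:26995607-26995666. The array lists RefSeq transcripts of both *Cyp2b9* and *Cyp2b10* for the *Cyp2b9* probe, so its signal cannot be assigned to *Cyp2b9* alone. The probes that carry the results are given in 3 lines, the upstream *Cyp2b10* probe whole, the last 30 bases of the downstream *Cyp2b10* probe and the first 30 bases of the *Cyp2b9* probe; the capitals mark the 12 bases over which the end of one lines up with the start of the other.
Cyp2b10 upstream probe: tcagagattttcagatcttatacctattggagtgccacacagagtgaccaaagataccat
Cyp2b10 downstream probe, last 30 bases: gtgctaatggactctgtaTAAGGTCTGAAT
Cyp2b9 probe, first 30 bases: TAAGGTCTGATTtctatgtctacagacttg
The alignment holds 11 matches in 12 bases, with 1 difference, A11T, counted from 1 at the first capital with the *Cyp2b10* base first, and its offset of 48 bases equals the difference between the probes' transcript positions. None of these 3 probes shares a run of 20 bases with another probe of the array. The other probes read *Cyp2b13* (A_52_P289091, chr7:26880905-26880964, mm9), *Cyp2b19* (A_52_P421626, chr7:27550443-27550502; A_55_P2482833, chr7:27556890-27556949; A_55_P2080220, chr7:27557545-27557604) and *Cyp2b23* (A_55_P2162645, chr7:27450250-27450309, minus strand).

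Because the signals of *Cyp2b10* and *Cyp2b9* moved together, the sequence before their starts is shown from RefSeq (GRCm38.p6), where all 5 members matched. The window runs from 250 bases before to 50 bases after the start used by the table. What is printed ends at the outermost annotated start of the gene, which for *Cyp2b9* lies 59 bases earlier. For *Cyp2b13*, whose window is not printed, that start lies 107 bases earlier, so more of these windows falls within the annotated genes. The capitals mark AGGTCA, a half-site of the kind that nuclear receptors bind, and ATAAAA.
Cyp2b10, chr7:25897408-25897657, plus strand: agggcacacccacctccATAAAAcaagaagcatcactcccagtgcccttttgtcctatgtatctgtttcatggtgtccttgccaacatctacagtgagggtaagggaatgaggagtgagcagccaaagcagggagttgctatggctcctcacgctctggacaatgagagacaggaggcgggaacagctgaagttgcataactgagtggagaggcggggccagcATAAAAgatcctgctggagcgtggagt
Cyp2b9, chr7:26173159-26173349, plus strand: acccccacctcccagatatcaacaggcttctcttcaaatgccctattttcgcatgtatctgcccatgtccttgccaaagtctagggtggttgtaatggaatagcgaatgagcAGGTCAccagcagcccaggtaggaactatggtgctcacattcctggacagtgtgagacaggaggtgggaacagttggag
The windows of *Cyp2b9* and *Cyp2b13* are identical at 298 of 300 positions and differ by T48C and C104T, counted from 1 at the first base of the window with the *Cyp2b9* base first. The window of *Cyp2b10* is 72.9% identical to that of *Cyp2b9* in a global alignment, 70.5% to that of *Cyp2b19* and 66.0% to that of *Cyp2b23*. AGGTCA, searched on both strands, occurs once in the windows of *Cyp2b9* and *Cyp2b13* (position -138), *Cyp2b19* (-121) and *Cyp2b23* (-164) and not in that of *Cyp2b10*, and 16.3% of 32817 mouse promoters of this length hold it. ATAAAA occurs in the window of *Cyp2b10* at -233 and -27, also in those of *Cyp2b19* and *Cyp2b23*, and in 18.5% of promoters. AGTTCA and TATAAA (14.0% and 13.6% of promoters) have no match in the 5 windows. The same holds for paired half-sites of the form AGNTCA, as direct repeats with 3 or 4 bases between them (0.0701% and 0.125% of promoters) or as an everted repeat with 6 bases between them (0.0305%). These letters describe the windows only, and the enhancers through which *Cyp2b10* is known to respond to CAR and PXR lie further upstream, outside them.

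The median signal over all probes was between 74 and 106.5 units on the 23 arrays, and 60.9% to 67.3% of probes were well above background, a flag the scanner software sets for a spot whose signal exceeds its background by a margin. All 10 enterocyte markers and all 7 ileum markers on the array, among them *Fabp6*, *Slc10a2* and *Fgf15*, were well above background on 23 of 23 arrays. The probe of *Nr1i2*, the targeted gene, was well above background on every array and did not differ between *Pxr*-/- CONT and WT CONT beyond the threshold (-0.41, SE 0.146, adjusted p 0.336). Its place relative to the deleted part is not given in the sources used here, so it does not check the genotype labels.

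Of the 8 *Cyp2b* probes, 3 were well above background on at least 50% of the arrays of 1 group and were tested. These are also the 3 that the deposited table holds. The downstream *Cyp2b10* probe was well above background on 22 of 23 arrays, all but 1 array of *Pxr*-/- CONT. The *Cyp2b9* probe reached it on 11 arrays, 83.3% of those without PCN and 100% of those with PCN in WT, and 0% and 16.7% in *Pxr*-/-. The upstream *Cyp2b10* probe reached it on 6 arrays, all 5 of WT PCN and 1 of *Pxr*-/- CONT, so it passed the filter through WT PCN alone. The other 5 probes, those of *Cyp2b13*, *Cyp2b19* and *Cyp2b23*, reached it on 1 array or none.

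The signals of the *Cyp2b10* and *Cyp2b9* probes rose with PCN in WT ileum. On the log2 scale without background subtraction, the downstream *Cyp2b10* probe showed the largest increase of all 37591 probes tested. The *Cyp2b9* probe, annotated to both genes, was the next. At the downstream *Cyp2b10* probe, the median spot signals of the 5 WT PCN arrays were 1374, 6876, 5564, 2171.5 and 1705.5 units, against 62 to 236.5 units in WT CONT with a median of 123. Every WT PCN array lay above every WT CONT array. The *Cyp2b9* probe gave 500, 2088, 2004.5, 782 and 588 units in WT PCN and 41 to 100 units in WT CONT (median 59). The upstream *Cyp2b10* probe gave 114, 441, 336, 138.5 and 113 units in WT PCN and 27 to 41.5 units in WT CONT (median 34). The groups did not overlap at any of these probes, and by normalized signal the 5 WT PCN arrays stood in the same order at all 3, replicate 2 highest, replicate 3 next and replicate 1 lowest.

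On the log2 scale of the deposited table, the downstream *Cyp2b10* probe went from 6.93 ± 0.69 (SD, n = 6) in WT CONT to 11.49 ± 1.1 (SD, n = 5) in WT PCN. The *Cyp2b9* probe went from 5.91 ± 0.49 to 9.97 ± 1.04 and the upstream *Cyp2b10* probe from 5.05 ± 0.17 to 7.59 ± 0.95. In the fit of all 4 groups with limma, the change was 4.61 on the log2 scale (SE 0.359, 95% interval 3.86 to 5.35, adjusted p 9.52e-08), 24.4-fold, at the downstream *Cyp2b10* probe. The *Cyp2b9* probe rose by 4.08 (SE 0.294, 3.47 to 4.69, adjusted p 4.1e-08), 16.9-fold. The upstream *Cyp2b10* probe rose by 2.56 (SE 0.274, adjusted p 1.34e-05), and because it was not well above background on any WT CONT array this is given as at least 5.32-fold on the scale without background subtraction. The downstream *Cyp2b10* and *Cyp2b9* probes were called higher, past the thresholds of 0.05 for the adjusted p and 1.5 for the fold. So were 0.599% of all tested probes. At both probes the groups did not overlap, as at 1.3% of all tested probes in this direction. The same held at the upstream *Cyp2b10* probe, but it could only be tested because its WT PCN signal was high and is not counted. Changes at the dim probes depend on how background is treated: with the scanner's background-subtracted processed signal the upstream *Cyp2b10* probe rose by 5.08 on the log2 scale and the downstream probe also by 5.08. With normexp background correction they rose by 1.82 and 4.28, so the size of the change at the upstream probe, its bound included, holds for the main scale only. The *Cyp2b9* probe rose by 5.11 with the processed signal and by 3.53 with normexp, so its 16.9-fold also belongs to the main scale.

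**Figure D1:**
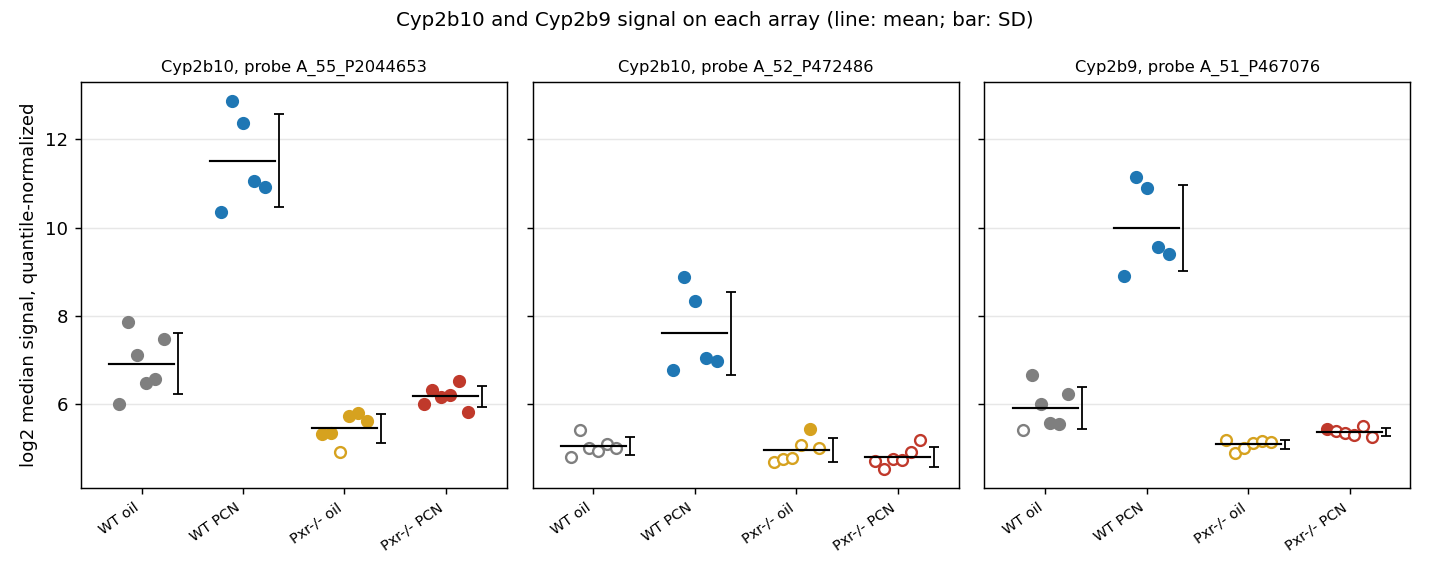
Quantile-normalized log2 median signal of the 2 Cyp2b10 probes and the Cyp2b9 probe on each of 23 arrays, by group; filled points are spots well above background, open points are not, the line is the group mean and the bar the SD. All 5 WT PCN arrays lie above all WT CONT arrays in each panel, and every Pxr-/- array lies below every WT PCN array.

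In *Pxr*-/- ileum none of the 3 probes was called for PCN, where 0.716% of all tested probes were called higher. The downstream *Cyp2b10* probe gave 29 to 60 units in *Pxr*-/- CONT (median 44.5) and 58 to 92 units in *Pxr*-/- PCN (median 71.25). After quantile normalization every *Pxr*-/- PCN array lay above every *Pxr*-/- CONT array, whereas in the deposited table the highest *Pxr*-/- CONT array (5.94) exceeded the lowest *Pxr*-/- PCN array (5.87). The change was 0.72 on the log2 scale (SE 0.342, 95% interval 0.01 to 1.43, adjusted p 0.25), 1.64-fold. The *Cyp2b9* probe gave 29.5 to 37 units in *Pxr*-/- CONT and 39 to 48 units in *Pxr*-/- PCN, which did not overlap, while in the deposited table the groups overlapped (5.28 against 5.18). The *Cyp2b9* probe was not well above background on any *Pxr*-/- CONT array and was on 1 of 6 *Pxr*-/- PCN arrays. Its fitted change was 0.29 (SE 0.28, -0.29 to 0.87, adjusted p 0.615), between signals near background, so no fold is given. The upstream *Cyp2b10* probe overlapped, at 26 to 45 units without PCN and 22 to 37 units with PCN, and changed by -0.15 (SE 0.261, adjusted p 0.793), and with the slides as a fixed block this value was 0.02. Of all tested probes, 1.23% had groups that did not overlap in this direction after quantile normalization.

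In the table's log2 values the downstream *Cyp2b10* probe was at 5.48 ± 0.39 (SD, n = 6) in *Pxr*-/- CONT and 6.18 ± 0.25 (SD, n = 6) in *Pxr*-/- PCN, and the *Cyp2b9* probe at 5.10 ± 0.14 and 5.38 ± 0.13. The upstream *Cyp2b10* probe was at 5.01 ± 0.27 and 4.78 ± 0.23. In a fit of the *Pxr*-/- arrays alone, which takes the spread from these 12 arrays only, the downstream *Cyp2b10* probe passed the threshold (0.72, adjusted p 0.0381). The processed signal gave larger values at this probe and at *Cyp2b9* (1.61, adjusted p 0.086, and 1.31, adjusted p 0.0941), and normexp background correction gave smaller ones (0.44, adjusted p 0.455, and 0.16, adjusted p 0.782).

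The effect of PCN in WT exceeded that in *Pxr*-/- at the downstream *Cyp2b10* probe and the *Cyp2b9* probe, tested as the difference of the effects. That difference was 3.89 on the log2 scale (SE 0.496, adjusted p 0.000875) at the downstream *Cyp2b10* probe and 3.80 (SE 0.406, adjusted p 0.000146) at the *Cyp2b9* probe, which was not well above background on any *Pxr*-/- CONT array. A call was also made at the upstream *Cyp2b10* probe (2.71, SE 0.379, adjusted p 0.00182), but it was tested only because its WT PCN signal was high and its other groups were at background on all but 1 array, so it adds no separate support. Of all tested probes, 0.0745% were called higher in this comparison. The call was lost at the downstream *Cyp2b10* probe with the processed signal (3.48, adjusted p 0.139). Within wash batch 1, with 11 arrays, only the *Cyp2b9* probe stayed past the threshold (4.09, adjusted p 0.0206), and within wash batch 2, with 12 arrays, none did, with differences of 2.42 to 3.58.

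**Figure D2:**
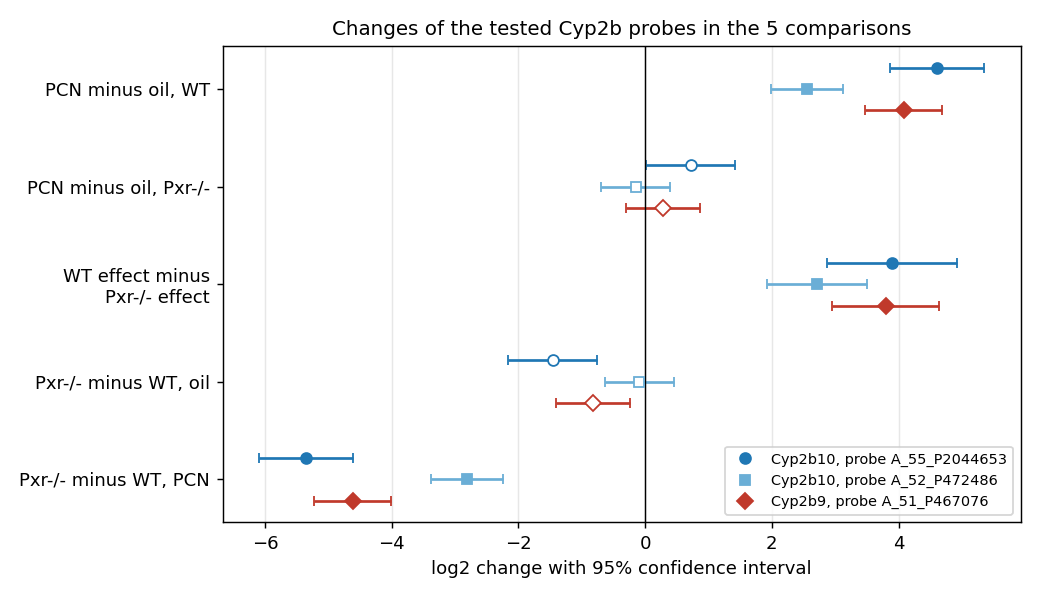
Log2 change with its 95% confidence interval for the 3 tested Cyp2b probes in each of the 5 comparisons; filled symbols were called, open symbols were not. The intervals of PCN in WT, of the difference between genotypes in the PCN effect and of genotype under PCN lie away from 0 at all 3 probes.

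Without PCN, *Pxr*-/- ileum gave lower signals than WT ileum at the downstream *Cyp2b10* and *Cyp2b9* probes on every array, but neither probe was called. The difference of *Pxr*-/- CONT minus WT CONT was -1.46 on the log2 scale (SE 0.342, 95% interval -2.17 to -0.75, adjusted p 0.0827) at the downstream *Cyp2b10* probe. It was -0.82 (SE 0.28, -1.40 to -0.24, adjusted p 0.307) at the *Cyp2b9* probe, where no *Pxr*-/- CONT array was well above background. By group means this puts WT CONT at least 1.66-fold higher on the scale without background subtraction. With normexp the difference was smaller (-0.48), so this bound holds for the main scale only. At the upstream *Cyp2b10* probe, which was not well above background in WT CONT, the difference was -0.09 (SE 0.261, adjusted p 0.97). Of all tested probes, 0.104% were called lower in this comparison and 0.476% had groups that did not overlap in this direction. The call at the downstream *Cyp2b10* probe turned with the setting: it passed with the processed signal (-2.63, adjusted p 0.0372), with slide as a fixed block (-1.66, adjusted p 0.0267), in a fit of the oil-treated groups alone (-1.46, adjusted p 0.0283), without WT CONT replicate 1 (-1.67, adjusted p 0.0446) and without WT PCN replicate 2 (-1.46, adjusted p 0.0328). The *Cyp2b9* probe passed with the processed signal (-2.50, adjusted p 0.012).

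Under PCN, the genotypes differed most. *Pxr*-/- PCN minus WT PCN was -5.35 (SE 0.359, adjusted p 3.22e-09) at the downstream *Cyp2b10* probe and -4.62 (SE 0.294, adjusted p 1.72e-09) at the *Cyp2b9* probe. At the upstream *Cyp2b10* probe it was -2.80 (SE 0.274, adjusted p 1.44e-06), with WT PCN at least 5.74-fold higher on the scale without background subtraction. Under the processed signal and normexp, this difference was -5.52 and -1.93 at the upstream *Cyp2b10* probe and -6.31 and -3.85 at the *Cyp2b9* probe. The downstream *Cyp2b10* and *Cyp2b9* probes were called lower and did not overlap, against 0.303% of all tested probes called lower and 0.665% without overlap in this direction. Both also held at the upstream *Cyp2b10* probe, but it passed the filter through WT PCN alone and is not counted. This comparison shares the WT PCN arrays with the comparison of PCN in WT, so the values are not independent of each other.

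The arrays were washed in 2 batches and lay on 8 slides, and the comparisons were repeated within slides. On the 4 slides that held both WT groups, PCN was higher on all 4 at the downstream *Cyp2b10* probe (3.08 to 6.39) and at the *Cyp2b9* probe (2.76 to 5.58). The upstream *Cyp2b10* probe gave 1.55 to 3.95, but it passed the filter through WT PCN alone and is not counted. The share of all tested probes that were higher on all 4 slides was not computed. On the 4 slides with both *Pxr*-/- groups, PCN was higher on all 4 at the downstream *Cyp2b10* probe (0.40 to 1.61) and at the *Cyp2b9* probe (0.27 to 0.49), and on 1 of 4 at the upstream *Cyp2b10* probe. *Pxr*-/- CONT was lower than WT CONT on all 4 shared slides at the downstream *Cyp2b10* probe (-2.24 to -1.16) and at the *Cyp2b9* probe (-1.51 to -0.39). Leaving out each array in turn kept the change of PCN in WT at 4.26 to 4.89 at the downstream *Cyp2b10* probe and at 3.79 to 4.35 at the *Cyp2b9* probe.

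*Cyp2b10* and *Cyp2b9* signals followed each other from array to array. Pearson's r between the downstream *Cyp2b10* probe and the *Cyp2b9* probe was 0.994 over 23 arrays after wash batch means were removed, and 0.947 after group means were removed as well. For the upstream *Cyp2b10* probe, r was 0.954 with the downstream *Cyp2b10* probe and 0.970 with the *Cyp2b9* probe, and within groups 0.818 and 0.860. These are descriptions over arrays that share their groups. As the *Cyp2b9* probe is annotated to both genes, its values do not show that 2 separate transcripts changed.

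**Figure D3:**
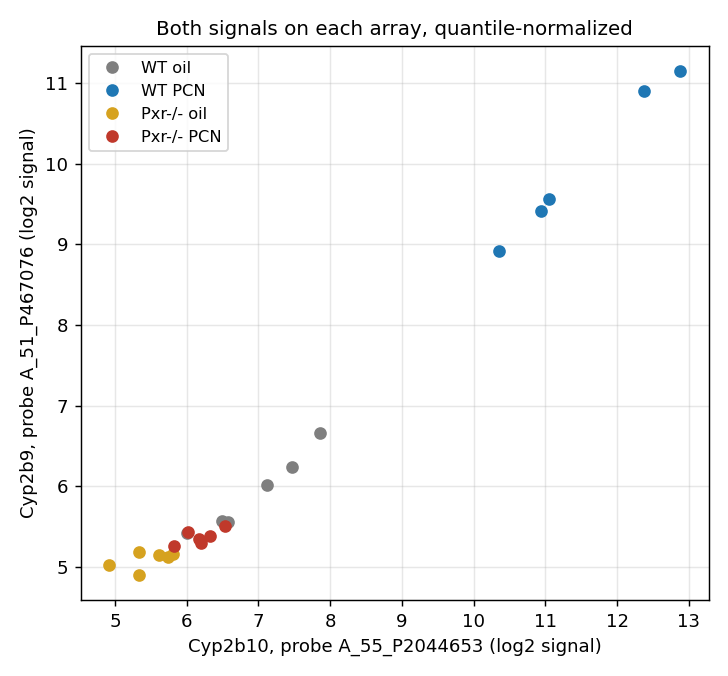
Quantile-normalized log2 signal of the downstream Cyp2b10 probe against that of the Cyp2b9 probe, 1 point per array, coloured by group. The 5 WT PCN arrays lie apart at the upper right, and the oil-treated WT arrays spread along the same line above the Pxr-/- CONT arrays.

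The genes outside the family whose signal was most like that of *Cyp2b10* over the 23 arrays were *Ces2a* (r = 0.973), a carboxylesterase that hydrolyses esters of drugs and lipids, *Cyp3a11* (0.964), the prototypical mouse PXR target, *4931406C07Rik* (0.961), *Cyp3a16* (0.956) and *Ces2f* (0.945), of 17727 genes tested. With group means removed these values were 0.493 to 0.742. For *Cyp2b9* the list was *Ces2a* (0.964), *4931406C07Rik* (0.958), *Cyp3a11* (0.957), *Gstm6* (0.954), a glutathione S-transferase, and *Ces2f* (0.951). All of these genes were called higher for PCN in WT, by 0.99 (*Gstm6*) to 3.76 (*Cyp3a16*) on the log2 scale, and none was called for PCN in *Pxr*-/-, with changes from -0.10 (*Gstm6*) to 0.56 (*Ces2a*, adjusted p 0.0901). They were chosen by correlation over these same arrays, where WT PCN stands apart, so this pattern follows from the choice and adds no separate support. Without PCN the genotype difference of *Ces2a* was -0.65 (adjusted p 0.187), whereas *Cyp3a11* was called lower in *Pxr*-/- CONT (-1.81, SE 0.305, adjusted p 0.00698).

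*Cyp2b13*, *Cyp2b19* and *Cyp2b23* were not well above background in any group, apart from 1 spot of *Cyp2b19*. The *Cyp2b13* probe was well above background on 0 of 23 arrays, with raw log2 signals of 4.77 ± 0.18 (SD, n = 6) and 4.82 ± 0.21 (SD, n = 5) in WT without and with PCN. In *Pxr*-/- they were 4.81 ± 0.12 and 4.85 ± 0.16 (SD, n = 6 each). The *Cyp2b23* probe was also well above background on 0 arrays, with means of 4.85 and 4.79 in WT without and with PCN and 4.84 in both *Pxr*-/- groups. Of the *Cyp2b19* probes, A_55_P2482833 and A_52_P421626 were well above background on 0 arrays, with group means of 4.63 to 4.75 and 4.62 to 4.76. A_55_P2080220 was on 1 array, WT CONT replicate 2 at 48 units, with group means of 5.04 to 5.19. The ranges of the groups overlapped at each of these probes, and the lowest signal among probes well above background was between 4.78 and 5.30 on the log2 scale by array. When every probe of the array was tested without a filter, 0 of these 5 probes were called by limma in any of the 5 comparisons, the lowest adjusted p was 0.483, and 0 of 25 unadjusted p-values were under 0.05 (lowest 0.0569). A spot at this level gives only an upper bound, and levels under it cannot be ordered. *Cyp2b13* shares 298 of 300 window positions with *Cyp2b9*, part of them within the annotated genes. Its probe was not well above background on any WT PCN array, where the *Cyp2b9* probe, annotated to *Cyp2b10* as well, rose.

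**Figure D4:**
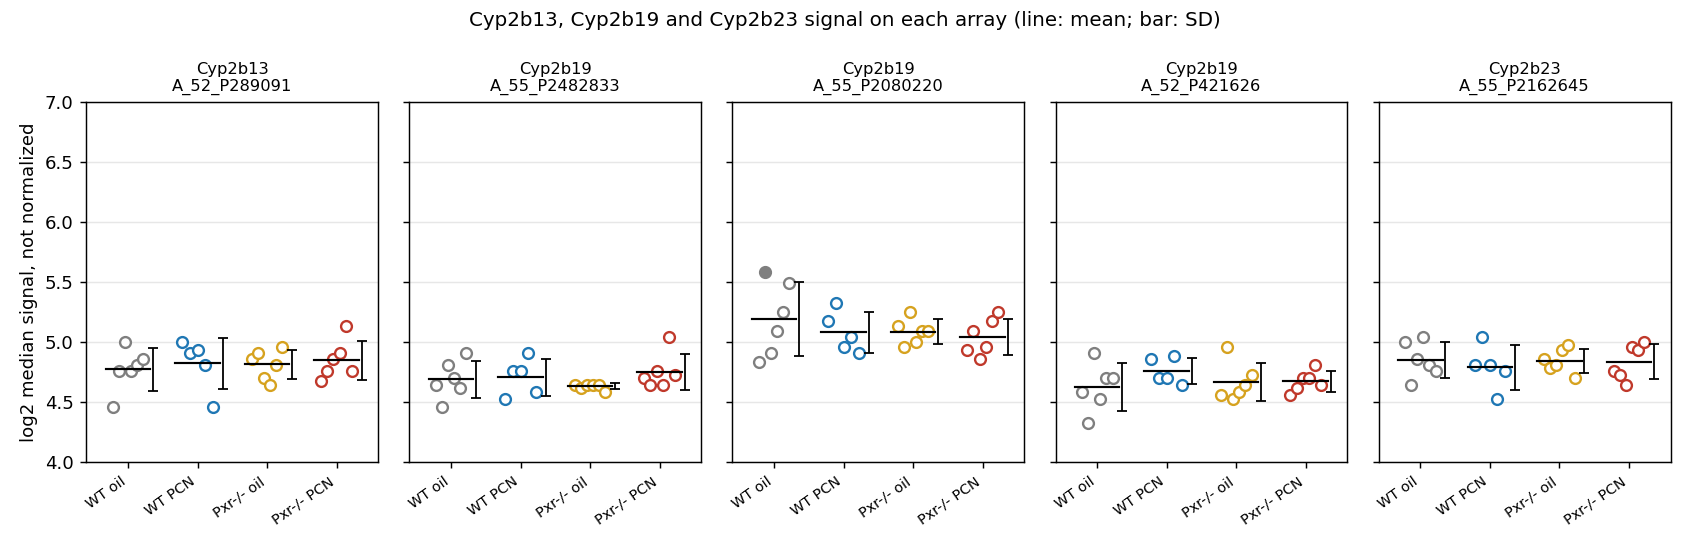
Raw log2 median signal of the 5 probes of Cyp2b13, Cyp2b19 and Cyp2b23 on each of 23 arrays, by group; filled points are spots well above background, open points are not, the line is the mean and the bar the SD. Only 1 spot is filled, that of WT CONT replicate 2 at the Cyp2b19 probe A_55_P2080220.

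No tested probe of another gene in the cluster was called with PCN. Between the outermost *Cyp2* neighbours of the cluster, *Cyp2s1* and *Cyp2t4*, 31 probes lie on the array, of which 23 are not *Cyp2b* probes, and 10 of those were tested. Their changes with PCN in WT were -0.30 to 0.20, and none was called for genotype without PCN either. Between the first and the last *Cyp2b* probe, 4 of 12 other probes were tested, with changes of -0.10 to 0.17. *Cyp2a5*, a coumarin hydroxylase of the same cluster, changed by 0.20 (adjusted p 0.844) in WT and *Cyp2s1*, an extrahepatic P450, by 0.20 (adjusted p 0.689). The 4 tested genes of 8 *Cyp2* neighbours had 0 calls in all 5 comparisons.

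**Figure D5:**
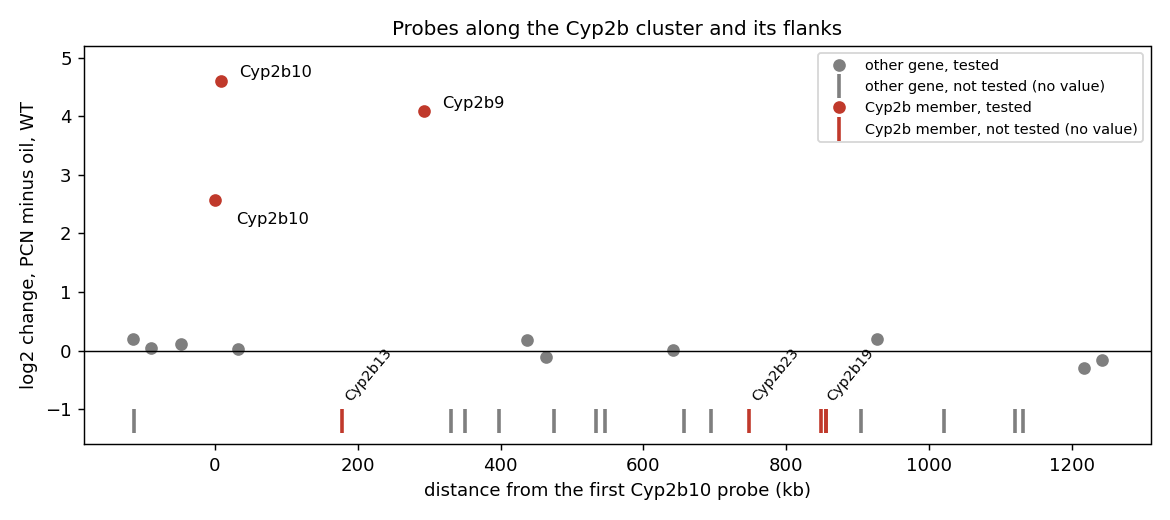
Log2 change for PCN in WT against the distance in kb from the first Cyp2b10 probe, for probes along the Cyp2b cluster and its flanks; ticks at the bottom mark probes that were not tested and have no value. The 3 tested Cyp2b probes lie at 2.56 to 4.61, and the 10 tested probes of other genes between -0.30 and 0.20.

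The receptors and partners of the pathway were not called. Of 13 genes of this list 12 were tested, and 0 were called in any of the 5 comparisons, with a median change of -0.01 for PCN in WT against -0.02 over all genes. *Nr1i3*, which encodes CAR, was well above background on all 23 arrays and changed by 0.18 (SE 0.167, adjusted p 0.735) in WT and by 0.23 (SE 0.159, adjusted p 0.438) in *Pxr*-/-. *Nr1i2* changed by 0.03 (adjusted p 0.966) and *Rxra* by -0.05 (adjusted p 0.909) in WT.

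Of 12 genes for electron supply and heme handling, 3 rose for PCN in WT, and their median change was 0.05 against -0.02 over all genes. *Por* rose by 0.62 (SE 0.109, adjusted p 0.00292) and *Alas1* by 0.62 (SE 0.096, adjusted p 0.000896). *Cyb5a*, which encodes the electron donor cytochrome b5 and was named after its value was seen, rose by 0.72 (SE 0.0991, adjusted p 0.000225). In *Pxr*-/-, *Por* changed by 0.38 (adjusted p 0.0415), which is under the fold threshold, and *Alas1* by -0.08 (adjusted p 0.653). The difference between genotypes was called for *Alas1* (0.70, SE 0.132, adjusted p 0.0359) and not for *Por* (0.24, adjusted p 0.999). *Hmox1*, a heme-degrading enzyme also named after its value was seen, was the only gene of the list that rose in *Pxr*-/- (1.26, SE 0.279, adjusted p 0.0155).

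Among other known PXR and CAR targets, a list that includes *Por* and *Alas1*, 42 of 52 genes were tested. For PCN in WT 21 rose and 0 fell, with a median of 0.59, and for PCN in *Pxr*-/- 2 rose (*Abcb1a* by 1.07 and *Abcb1b* by 0.95, both encoding the efflux pump P-glycoprotein) with a median of 0.19. *Cyp3a11* rose by 3.53 (SE 0.321, adjusted p 1.21e-06) in WT, and changed by -0.05 (adjusted p 0.947) in *Pxr*-/-. *Cyp2c55*, an intestinal P450, rose by 3.51 (SE 0.469, adjusted p 0.000155) in WT and changed by 1.58 (adjusted p 0.0502) in *Pxr*-/-. The other named targets in WT were *Cyp3a41a* (3.96), *Cyp3a16* (3.76), *Cyp3a44* (3.25), *Ces2a* (2.51), *Cyp3a59* (2.46) and *Cyp3a57* (2.33), whose changes in *Pxr*-/- were -0.10, 0.01, 0.14, 0.56, 0.62 and 0.67 and were not called. Without PCN 12 targets were lower in *Pxr*-/-, among them *Cyp3a11* and *Cyp2c55* (-4.63), with a median of -0.29 over the list. Probes of related *Cyp3a* genes may bind each other's transcripts, which was not separated.

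In bulk tissue fewer cells of a type and less RNA per cell cannot be told apart, so markers of other cell types are given beside these results. Hepatocytes express *Cyp2b10* and *Cyp2b9*, and of 12 hepatocyte markers 7 were well above background on all 23 arrays, among them *Alb*, *Serpina1a* and *Cps1*, whereas *Fga* was on 0 arrays and *Cyp7a1* on 1. None was called in the 5 comparisons. Their summed signals were 7259 to 11360 in WT CONT, 4589 to 9391 in WT PCN, 4789 to 8382 in *Pxr*-/- CONT and 3861 to 5865 in *Pxr*-/- PCN. The median change of the 9 tested markers was -0.29 for PCN in WT and -0.22 for PCN in *Pxr*-/-. It was -0.50 for genotype without PCN and -0.11 for genotype under PCN. Keratinocytes express *Cyp2b19*, and of 10 keratinocyte markers 5 were well above background on all 23 arrays and 1, *Ivl*, on none. Of 9 tested, *Krt14* and *Sbsn*, named after their values were seen, rose with PCN in WT (2.81 and 0.76) and in *Pxr*-/- (2.53 and 0.92), and the medians of the list were 0.13 and 0.03. B cell markers of Peyer's patches were higher in WT PCN at 8 of 8 genes, with a median of 1.42 and 0 called, and in *Pxr*-/- PCN the median was 0.45. Their summed signal was 2013 to 13980 in WT PCN (median 2495) and 1686 to 2359 in WT CONT (median 1934). The median of these B cell markers was 1.05 for the difference between genotypes in the PCN effect. It was -1.01 for genotype under PCN and -0.001 for genotype without PCN, with 0 called in each. The enterocyte sums overlapped, at 602200 to 714100 in WT PCN and 495100 to 719500 in WT CONT. Of 8 smooth muscle markers 0 were called in WT and 3 (*Actg2*, *Cnn1* and *Tagln*, named after their values were seen) rose in *Pxr*-/- PCN. No marker of the proximal small intestine, the colon or the pancreas was called in the 5 comparisons, and of the ileum markers *Cubn*, also named afterwards, rose in *Pxr*-/- PCN (0.61). The part of these cell types in the *Cyp2b* changes was not tested.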

How the data were processed

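The members and the gene lists were chosen with earlier results of these data known. Per the labels, RNA of each ileum was labelled with Cy3 (150 ng input), hybridised to an Agilent mouse array and read with Agilent Feature Extraction 10.10.1.1, a version from the submitters' processing notes. The deposited scanner files hold spot intensity values with their background flags. The authors' table holds log2 values of 37161 probes, which per their methods were filtered, corrected for washing batch and normalized with CrossNorm; which arrays were normalized together is not given in the sources used here. Here the median intensity was log2 transformed without background subtraction, flagged outlier spots were left out, spots of 1 probe averaged and arrays quantile-normalized. Testing required a probe to exceed background in no fewer than 50% of the arrays within any 1 group. Groups and wash batch were fitted with limma 3.58.1 (R 4.3.3) over all 23 arrays. Two-sided p-values received the Benjamini-Hochberg adjustment across the 37591 tested probes, and a call needed both 0.05 or less after adjustment and more than 1.5-fold change. The script was tested on simulated data. Where a group had no array well above background, any fold given is a lower bound on the main scale. It is taken against the lowest signal among probes well above background on each array, or against the spot's own signal where that is higher. Named were all *Cyp2b* probes, 7 set genes, the 6 called targets with the largest change, called neighbours (none was called, so the tested ones are described) and the 5 most alike genes, each by its brightest tested probe. No intervals from counts exist for arrays; their number limits the precision. Sequences came from the scanner files and RefSeq tables, aligned with Biopython 1.88. Alternatives changed the signal, normalization, filter, blocks, batches and arrays fitted.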

Additional observations from a re-analysis of the deposited data

Results flagged for a closer look

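The effect of PCN in WT exceeded that in *Pxr*-/- at the downstream *Cyp2b10* and *Cyp2b9* probes in the test of the difference itself. Of all tested probes, 0.0745% were called higher in this comparison. The upstream *Cyp2b10* probe was also called but is not counted. The fitted difference was 3.89 on the log2 scale at the downstream *Cyp2b10* probe, 3.80 at the *Cyp2b9* probe, which is annotated to both genes, and 2.71 at the upstream *Cyp2b10* probe. The values of the *Cyp2b9* and the upstream probe are differences against signals at background, in *Pxr*-/- CONT for *Cyp2b9* and in most arrays outside WT PCN for the upstream probe, which was tested only because its WT PCN signal was high. No array stood apart from the others of its group at these probes by Dixon's criterion in 12 groups checked.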

How the results depend on the processing

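Of 736 recomputed values, 712 kept their direction and their side of the threshold, or a count within 1.5 times. Some of these had little room to change. An array left out was often of a group outside the comparison, and dropping the fold threshold kept the same fit. The exceptions for PCN in *Pxr*-/- were the upstream *Cyp2b10* probe with slide as a fixed block (0.0232, reversed) and the downstream *Cyp2b10* probe in the fit of those groups alone (0.717, adjusted p 0.0381, count of called probes 1). For PCN in WT the upstream *Cyp2b10* probe lost its call within wash batch 2 (2.39, adjusted p 0.0553). For genotype without PCN, the processed signal called the downstream *Cyp2b10* probe (-2.63) and the *Cyp2b9* probe (-2.50), a count of 2; slide as a fixed block (-1.66) and the compared groups alone (-1.46) called the downstream *Cyp2b10* probe, a count of 1 each; and within wash batch 1 the upstream *Cyp2b10* probe reversed (0.147). The difference between genotypes in the PCN effect lost its call at the downstream *Cyp2b10* probe with the processed signal (3.48) and within wash batches 1 (4.36) and 2 (3.47), at the upstream *Cyp2b10* probe within batches 1 (3.02) and 2 (2.42), and at the *Cyp2b9* probe within batch 2 (3.58), so that 1 probe was called within batch 1 and 0 within batch 2; batches hold 11 and 12 arrays. The causes of these exceptions were not tested. Leaving out each array in turn gave -1.67 to -1.25 for genotype without PCN at the downstream *Cyp2b10* probe, with 0 to 1 probes called. Testing only probes well above background on all arrays left 31887 probes and 0 *Cyp2b* probes, so this alternative gave no values.

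With the replicate number as a replicate block, PCN in WT changed the downstream *Cyp2b10*, upstream *Cyp2b10* and *Cyp2b9* probes by 4.62, 2.58 and 4.10, and the block changed no call at these probes in any comparison. Over all probes, calls for PCN in WT went from 259 to 220, in *Pxr*-/- from 353 to 306 and for the difference from 29 to 23. The deviations of same-numbered arrays correlated above 0.1 in 6 of 33 pairs (median -0.0321), and 8 of 23 arrays matched their own number best. The count due to chance was not computed, so these values do not settle whether same-numbered arrays are related. Slide as a random block (correlation 0.0546) changed no call at these probes. Signal close to background limits the upstream *Cyp2b10* probe and the *Cyp2b9* probe in the *Pxr*-/- groups.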
